A study of Mus musculus with 2 samples.

Results

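The transcripts described here are the long annotated mRNAs of mouse adrenal gland whose whole set of introns was matched by long reads. They were selected on their class (Known), an annotated length of 6000 bases or more, at least 2 exons, and a measured value, the read count summed over both libraries, of 3 or more. The rule found 639 transcripts in 620 genes, of 25705 annotated transcripts with reads, and 636 of the 639 lay in protein-coding genes. The total RNA for long-read RNA-seq came from adrenal gland of the F1 hybrid strain B6CASTF1/J (male, age 10 days), as 2 biological replicates of 1 group with no treatment or other condition. The labels give both replicates the same donor entry and do not settle whether they came from separate animals, so differences between these 2 libraries may be technical. With 1 library on each side, the tests below set a difference against counting error only and measure no spread between replicates. Reads on annotated genes numbered 927914 in replicate 1 and 1303420 in replicate 2, and 3 reads corresponded to 3.23 and 2.30 CPM (counts scaled to 1000000 such reads). Markers of the adrenal cortex (8 of 8) and medulla (5 of 5) had reads in both libraries, while 3 of 4 kidney markers (Umod, Slc12a1 and Lrp2) were at 0 and the fourth had 5 reads in each. Markers of other tissues were well read. In replicates 1 and 2 those of liver summed to 8371 and 24031 CPM, and those of brown fat to 6302 and 7549. Cortex markers summed to 31605 and 20036 CPM, and medulla markers to 11403 and 6053. In whole tissue, fewer cells of a type and less RNA per cell cannot be told apart.

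In mammals, most very long mRNAs are long because of their 3′ untranslated region (UTR), which usually lies in a single last exon and carries binding sites for microRNAs and RNA-binding proteins. The 3′ end is set by cleavage and polyadenylation downstream of a signal such as AATAAA or ATTAAA, and many genes use an earlier and a later signal in the same exon, which gives a short and a long form of one mRNA with the same introns. A smaller class of long mRNAs is long because of many coding exons, as in genes for cytoskeletal and matrix proteins. The class Known is given to a read when its chain of introns equals that of an annotated transcript. A read therefore has to cross every splice junction, but not the whole of the first or the last exon.

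The deposited length of a Known model was the annotated length and not that of a read: it equalled the GENCODE M21 length for 25705 of 25705 models. What a matching read must cover is the spliced stretch between the first and the last junction, called the intron-chain span below. In the 639 long transcripts this span had a median of 1608 bases, against a median annotated length of 7020 bases. For 12 transcripts the span itself was 6000 bases or more, for 142 it was 3000 or more and for 196 it was under 1000. Of 27988 reads on the long transcripts, 25788 (92.1%) were on those with a span under 3000 bases, and 77 reads were on those with a span of 6000 or more. In the label "full-length over 6 kb", the words "full-length" thus held for the chain of introns. The words "over 6 kb" held for the annotated length, and for the span itself in only 12 of the 639 transcripts. Where the Known reads themselves ended could not be seen.

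The places where models of the same genes ended are shown by their sequence, because they often lay far before the annotated end of a long last exon. For each of the genes below, the earlier line lies at or just before the end most read among unannotated models that share the last intron. The later line lies at or just before the annotated end. Each line gives 30 bases of the GENCODE M21 transcript (mm10, 5′ to 3′ on the transcribed strand), from the 3′ UTR in the last exon, and capitals mark the polyadenylation hexamer. The bases are placed around the hexamer, so the end itself can lie some bases after the last one printed. All genes printed here hold a hexamer at both ends, while 151 of the 279 early ends counted below (54.1%) held one.
Ppp2ca-201, early, chr11:52122581-52122610, plus strand: cagtgttttcatAATAAActtgagaactga
Ppp2ca-201, annotated, chr11:52127741-52127770, plus strand: tatactgtactcAATAAActgtaaacaaat
Glo1-206, early, chr17:30592872-30592901, minus strand: atcataggctgaAATAAAgctaacactgtt
Glo1-206, annotated, chr17:30584938-30584967, minus strand: cctcaattttatAATAAAatctattctcca
Soat1-207, early, chr1:156429800-156429829, minus strand: atttttagatgaAATAAAtgactatgtgat
Soat1-207, annotated, chr1:156424533-156424562, minus strand: aagaatgtgataAATAAAtatatttagaaa
Mprip-204, early, chr11:59776193-59776222, plus strand: ttttggttttttATTAAAtcttgcacaaaa
Mprip-204, annotated, chr11:59780822-59780851, plus strand: gaactgtatcatAATAAActatttttgcat

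The transcripts at the other extreme are shown by their last splice junction, which a read had to cross together with all the others. In these 3 genes that junction lies in coding sequence. Each line gives 15 bases on either side of it, with the last exon in capitals, and the coordinates are those of the intron removed between them.
Tln1-201, chr4:43532086-43532191, minus strand: gggggcattgcccagATTATCGCAGCACAG
Fasn-201, chr11:120807992-120808074, minus strand: tacaacctctcccagGTGTGTGACGGGAAG
Flna-202, chrX:74223978-74224751, minus strand: attgcagcaaagcagGTAACAACATGCTGC

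The most-read long transcripts were of the first kind, with a short chain and a much longer last exon. Ppp2ca-201 (chr11:52098681-52127778, mm10), the catalytic subunit alpha of protein phosphatase 2A, had 656 reads in replicate 1 and 592 in replicate 2. Its annotated length was 7102 bases, of which 755 lay between the first and the last of its junctions and 5877 in the last exon. G3bp1-201 (chr11:55469685-55504838), which encodes a stress granule protein, had 647 and 572 reads, a length of 6703 bases and a span of 1206. Zfand5-205 (chr19:21272278-21286840), a zinc-finger gene linked to protein degradation, had 372 and 525 reads and a span of 502 in 7385 bases. Hnrnpu-201 (chr1:178324343-178337797), a nuclear RNA-binding protein, had 412 and 357 reads. Eif4g2-213 (chr7:111067750-111083030), a translation factor related to eIF4G, had 445 and 233 reads and a longer span of 2741 bases. Glo1-206 (chr17:30584936-30612659), which detoxifies methylglyoxal, had 295 and 349 reads, and its last exon held 9291 of 9865 bases. The 15 transcripts with most reads held 9615 of the 27988 reads (34.4%). At the other end, 313 transcripts had under 10 reads and 95 had exactly 3.

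**Figure D1:**
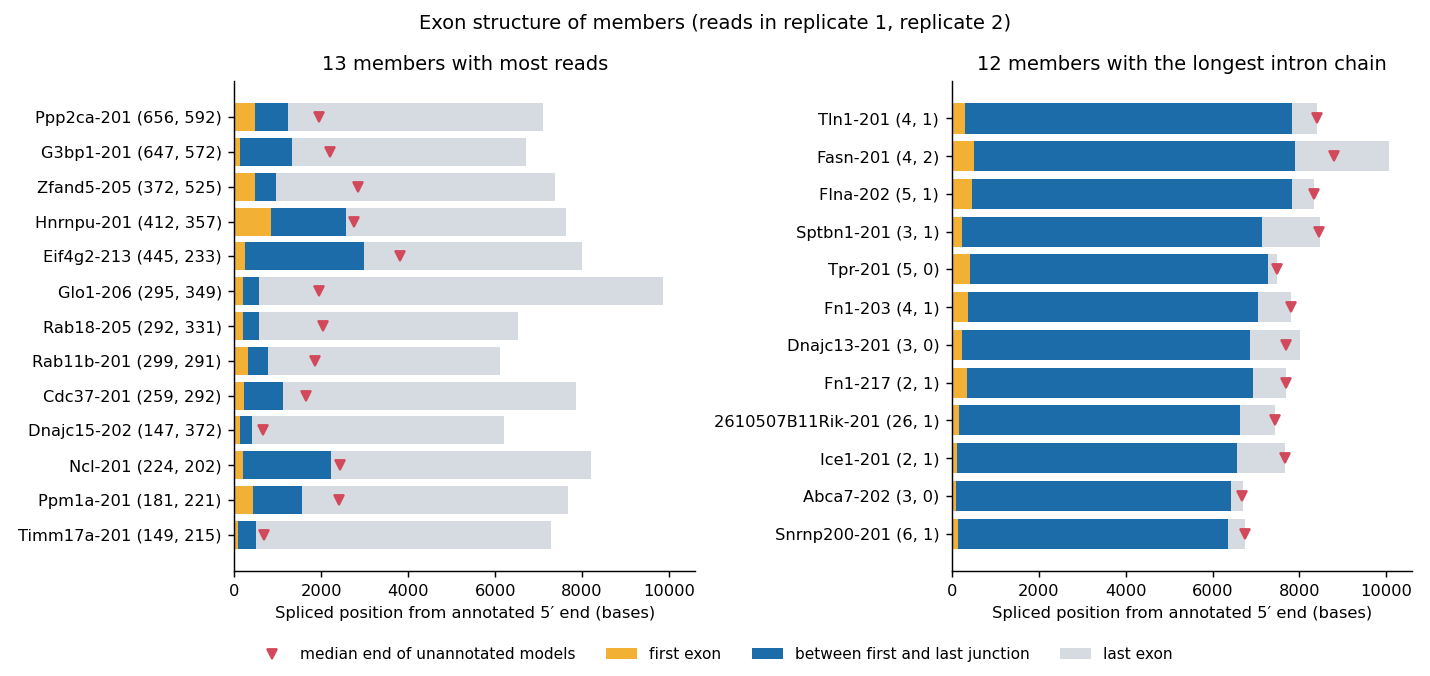
Spliced exon structure in bases of the 13 long transcripts with most reads (left) and the 12 with the longest intron-chain span (right). Bars are split into the first exon, the stretch between the first and last junction and the last exon; triangles mark the median end of unannotated models with the same last intron, and reads in replicates 1 and 2 stand in brackets. In Ppp2ca-201 the span was 755 of 7102 bases and the models ended early, while in Tln1-201 it was 7533 of 8393 bases and the models ended at the annotated end.

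Compared with 15062 multi-exon Known transcripts under 6000 bases with at least 3 reads, the long transcripts differed by annotation in the last exon more than in the rest. The rule sets the total length, so these are descriptions. The median last exon was 5163 bases in the long transcripts and 873 in the shorter ones, and the median span 1608 and 751 bases. The median first exon was 294 and 207 bases, and the median coding sequence 2130 and 1119 bases. The last exon took over 50% of the length in 499 of 639 long transcripts (78.1%), against 6587 of 15062 shorter ones (43.7%). The median 3′ UTR, counted with the stop codon, was 4793 bases in the long transcripts and 737 in the shorter ones.

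The longest annotations showed this most plainly. D10Wsu102e-201 is annotated with 123179 bases, 122802 of them in the last exon and 224 between its outer junctions, and had 12 and 13 reads in replicates 1 and 2. D1Ertd622e-201 is annotated with 40378 bases, of which 40044 are last exon. Ahnak-202, the giant scaffold protein gene, had 0 and 5 reads on 18100 bases. Most of its coding sequence lies in a last exon of 17498 bases, and the chain that had to be read spanned 456. Lengths on both sides of the limit were close: Tmem106b-201 (6002 bases) had 53 and 63 reads in replicates 1 and 2, and just outside it Nucks1-201 (5998 bases) had 18 and 18. Below the limit on reads, 130 long annotated transcripts had 2 reads and 243 had 1.

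**Figure D2:**
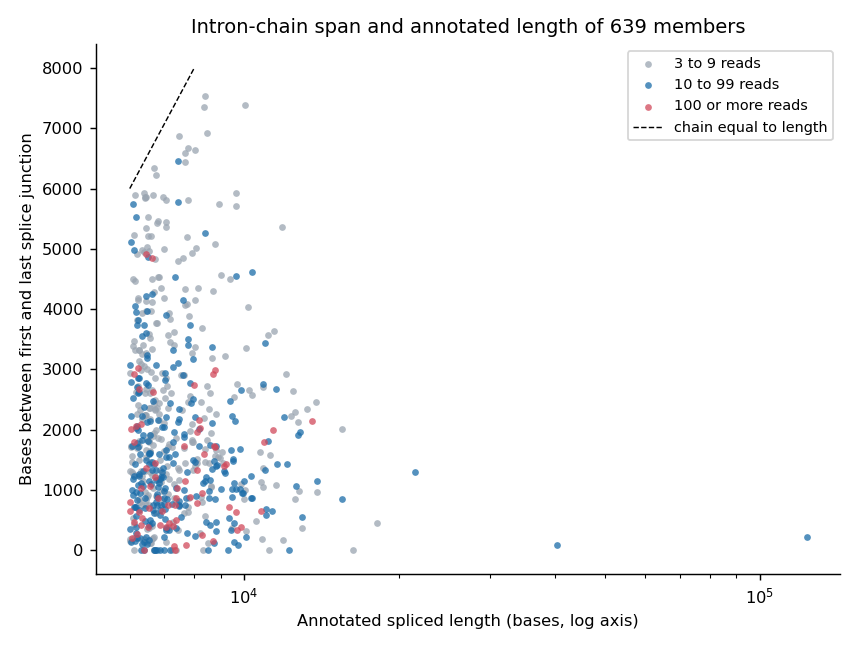
Intron-chain span in bases against annotated spliced length in bases (log axis) for each of the 639 long transcripts, coloured by reads summed over both replicates; the dashed line marks a span equal to the length. Points lie below the line, with a median span of 1608 bases, and the transcript annotated with 123179 bases has a span of 224.

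The long-chain transcripts were few and thinly read, and their reads came mostly from replicate 1. Tln1-201 (57 exons), which links integrins to actin, had a span of 7533 bases with 4 reads in replicate 1 and 1 in replicate 2. Fasn-201, fatty acid synthase, had 4 and 2 reads over 7386 bases, and Flna-202, the actin cross-linker filamin A, 5 and 1 reads over 7359 bases. Sptbn1-201, a spectrin beta chain, had 3 and 1 reads, and Tpr-201, a nuclear pore protein, had 5 and 0. The fibronectin forms Fn1-203 and Fn1-217 had 4 and 2 reads in replicate 1, and 1 read each in replicate 2. 2610507B11Rik-201, with a span of 6457 bases, had 26 reads in replicate 1 and 1 in replicate 2. All 12 transcripts with a span of 6000 bases or more had more reads in replicate 1 than in replicate 2, and 3 of them had 0 reads in replicate 2. None of the 12 had 3 reads in replicate 2 alone, so the limit on summed reads favours this direction. Among the 43 with a span of 5000 or more, which passed the same limit, 38 had more reads in replicate 1. Over all 484 annotated transcripts with a span of 6000 to 8000, without that limit, there were 106 and 16 reads.

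The share of annotated long transcripts with at least 3 reads was lower at longer spans, above a span of 1000 bases. Of 4081 annotated multi-exon transcripts of 6000 bases or more, 639 (15.7%) had 3 or more reads. By annotated length, over all annotated transcripts, the share was 4.36% under 1000 bases, 18.98% at 1000 to 2000, 24.1% at 2000 to 3000, 25.5% at 3000 to 4000 and 25.3% at 4000 to 6000. It was 18.3% at 6000 to 8000, 13.3% at 8000 to 10000 and 9.55% above that. Within the long ones the share was 19.6% for spans under 500 bases, 38.5% from 500 to 1000, 27.3% from 1000 to 2000, 22.3% from 2000 to 3000, 12.3% from 3000 to 4000, 10.3% from 4000 to 5000, 7.13% from 5000 to 6000 and 2.48% from 6000 to 8000. Of 334 annotated transcripts with a span of 8000 or more, 0 had 3 reads, and 6 had 1 or 2, all in replicate 1: Aspm-201, Cenpf-204, Ranbp2-201, Bod1l-204, Fbn1-201 and Utp20-201. Transcript abundance also sets these shares, and its part in them was not tested.

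**Figure D3:**
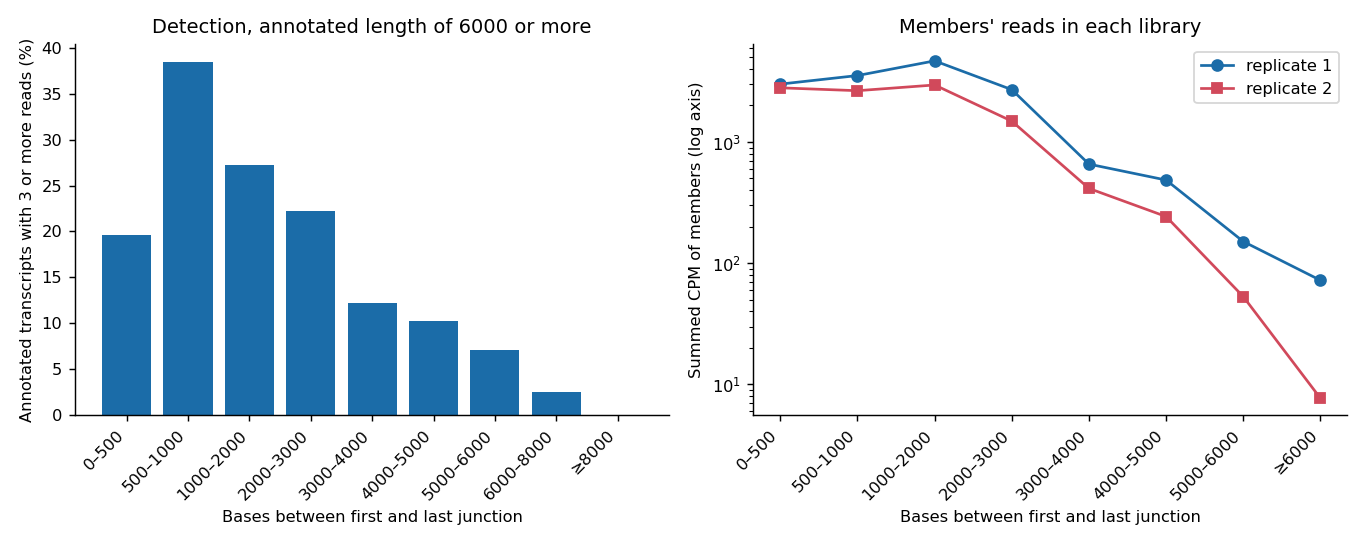
Left, percent of annotated multi-exon transcripts of 6000 bases or more with at least 3 reads, by intron-chain span in bases. Right, summed CPM (log axis) of the 639 long transcripts by span in replicates 1 and 2. Detection was 38.5% at spans of 500 to 1000 bases and 2.48% at 6000 to 8000, and the lines of the 2 replicates draw apart as the span grows.

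The reads of the long transcripts numbered 14170 in replicate 1 and 13818 in replicate 2. They made up 1.91% of reads on Known transcripts in replicate 1 (95% Clopper-Pearson interval 1.88 to 1.94) and 1.43% in replicate 2 (1.41 to 1.46), with a mean of 1.67% ± 0.338 (SD, n = 2). The intervals cover counting error only. Reads fell on the transcript in both libraries for 559 of 639 transcripts, only in replicate 1 for 51 and only in replicate 2 for 29. Summed CPM was close in both libraries for spans under 500 bases, with 3002 in replicate 1 and 2797 in replicate 2, a ratio of 1.07. The ratio of replicate 1 over replicate 2 was 1.33 for spans of 500 to 1000 bases, 1.58 for 1000 to 2000, 1.82 for 2000 to 3000, 1.59 for 3000 to 4000, 2.00 for 4000 to 5000 and 2.85 for 5000 to 6000. For spans of 6000 or more it was 9.41, from 67 and 10 reads. Without the limit on summed reads it was 9.31 for spans of 6000 to 8000, from 106 and 16 reads. By annotated length, over all annotated multi-exon transcripts, no such gradient was seen above 6000 bases. The ratio was 1.46 at 6000 to 8000 bases, 1.45 at 8000 to 10000 and 1.39 above 10000. Below 6000 bases there was a gradient. The ratio was 0.443 under 1000 bases, 1.08 at 1000 to 2000, 1.32 at 2000 to 3000, 1.58 at 3000 to 4000 and 1.53 at 4000 to 6000. These ratios are descriptions with no test.

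Transcript by transcript, 326 of the long transcripts had the 10 reads needed for Fisher's exact test of reads in replicate 1 against replicate 2, adjusted by Benjamini-Hochberg over all 10753 annotated transcripts tested. In replicate 1, 92 were higher (28.2%) and 19 lower (5.83%) at an adjusted p under 0.05, where over all transcripts 26.9% were higher and 11.9% lower (38.8% in either direction). The median log2 ratio of CPM was 0.55 for the long transcripts and 0.41 for all. The share of long transcripts higher in replicate 1 lay close to the background and the share lower lay under it. Neither was particular to the long ones: multi-exon transcripts of 4000 to 6000 bases had a median of 0.85, with 37.6% higher and 2.97% lower. Scaling changes this split. With TMM factors 57 were higher and 29 lower, and the log2 ratio of every transcript moved by -0.41. The medians were then 0.141 for the long transcripts and 0.006 for all. The shares of all transcripts called with these factors are not given here, so the 57 and 29 have no background beside them. Within bins of span under 3000 bases, the medians of long and shorter transcripts also lay near each other. The median log2 ratio was 0.31 in long and 0.24 in shorter transcripts for spans under 1000 bases, and 0.75 and 0.68 for 1000 to 2000. It was 0.80 and 0.87 for 2000 to 3000. For 3000 or more the long transcripts lay lower, at 0.89 against 1.20, from 39 and 211 tested. In the same order of bins, 19.2%, 30.8%, 41.5% and 33.3% of long transcripts were called higher in replicate 1. Of the shorter ones, 21.3%, 37.4%, 38.8% and 49.8% were. Unannotated spliced models had a median model length of 2250 bases in replicate 1 and 1885 in replicate 2. The part of this in the ratios was not tested.

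Several of the transcripts furthest above equal CPM in replicate 1 had long chains. Sf3b1-201, a core subunit of the splicing factor U2 snRNP, had 65 reads in replicate 1 and 6 in replicate 2 (log2 ratio 3.82, Fisher's exact test with adjusted p = 2.93e-17). The gene as a whole had 104 and 128 reads, so the share of its reads on this transcript was 62.5% in replicate 1 (95% interval 52.5 to 71.8) and 4.69% in replicate 2 (1.74 to 9.92). Eif5b-201, which joins ribosomal subunits in translation initiation, had 22 and 1 reads (log2 4.40, adjusted p = 5.91e-07 by Fisher's exact test) of 48 and 105 reads of its gene. 2610507B11Rik-201 had 26 and 1 (log2 4.63) of 54 and 60 gene reads. Cltc-202, the clathrin heavy chain, had 28 and 3 reads (log2 3.52). Il6st-203, the shared receptor subunit of interleukin-6 type cytokines, had 50 and 9 reads (log2 2.90) with a shorter span of 2115 bases. S1pr2-201, a sphingosine-1-phosphate receptor with only 2 exons, had 26 and 5 (log2 2.76). Lgr6-201, which was chosen for mention after its values were seen, had 13 and 0 reads. Its CPM in replicate 1 was 6.09-fold that of 3 reads in replicate 2, taken as the floor of a library, with counting error left out. Markers of the adrenal cortex, the medulla and endothelium were also higher in replicate 1, with summed levels of 31605, 11403 and 454 CPM in replicate 1 and 20036, 6053 and 187 CPM in replicate 2, and their part in these ratios was not tested.

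Of the 19 transcripts lower in replicate 1, 11 had a span under 1000 bases, as had 130 of the 326 tested. Klf13-201, a 2-exon Krüppel-like transcription factor, had 5 reads in replicate 1 and 104 in replicate 2 (log2 -3.76, Fisher's exact test with adjusted p = 3.02e-17), of 12 and 147 reads of its gene. Irs2-201, an insulin receptor substrate with 2 exons, had 3 and 40 reads (log2 -3.04), and Amer1-201, a Wnt regulator with 2 exons, 1 and 20. Pdpk1-202, a kinase upstream of Akt, had 1 and 20 reads, and Prlr-202, the prolactin receptor, 5 and 32 (log2 -2.07). Rest-201, a repressor of neuronal genes, had 0 and 22 reads. Its CPM in replicate 2 was 5.22-fold that of 3 reads in replicate 1, taken as the floor of a library, with counting error left out. Among well-read transcripts, Dnajc15-202, a mitochondrial inner-membrane chaperone, had 147 and 372 reads (log2 -0.85, adjusted p = 6.31e-09 by Fisher's exact test). Liver, skeletal muscle and red cell markers were also lower in replicate 1, with summed levels of 8371, 787 and 1104 CPM in replicate 1 and 24031, 2167 and 3753 CPM in replicate 2, and their part in these ratios was not tested.

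**Figure D4:**
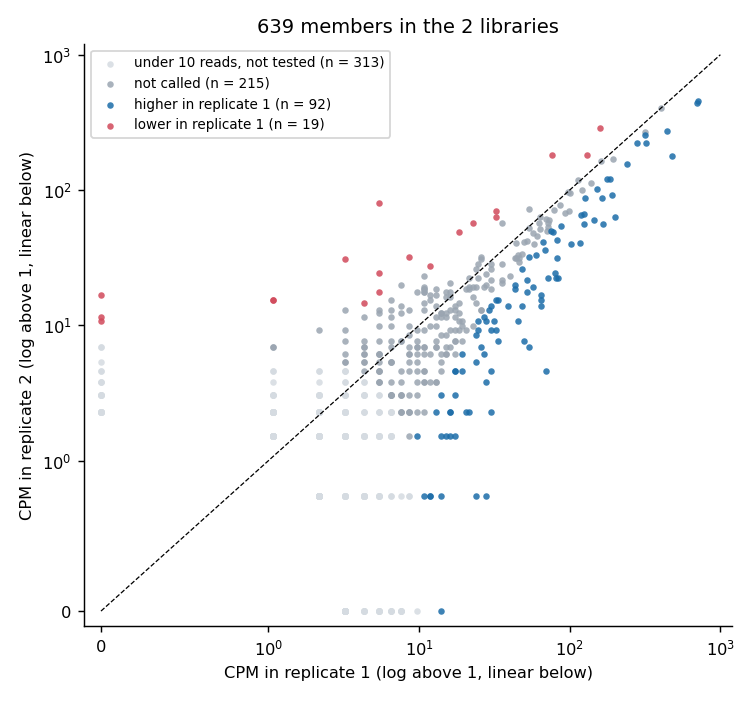
CPM of each of the 639 long transcripts in replicate 1 and replicate 2 (both axes log above 1 and linear below), coloured by the call of Fisher's exact test; the dashed line marks equal CPM. The 92 transcripts higher in replicate 1 lie below the line and the 19 lower in replicate 1 above it, and 313 had under 10 reads and were not tested.

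The ends of the long transcripts were examined in other models, since those of the Known reads are not given. Models of the classes ISM (incomplete splice match), NIC (annotated splice sites in another combination) and NNC (at least 1 unannotated splice site) have 1 end each. Such an end can equal an annotated end of the gene, as in 151 of the 279 early ends below. The shares that follow therefore rest in part on the annotation. Those that share the last intron of a long transcript numbered 5312, with 9820 reads, and belonged to 543 of the 639 transcripts. A model that shares its last intron with several annotated transcripts is counted for each. Of these models 24.5% ended within 200 bases of the annotated end and 60.7% ended 2000 or more bases before it. For transcripts under 6000 bases, 70.8% of 151617 models reached the end and 3.23% ended that early. A model can end 2000 bases early only in a last exon longer than that, so last-exon length sets much of this contrast. With a last exon of 3000 to 6000 bases, 86.4% of models of long transcripts and 60% of those of shorter ones ended that early. At 1000 to 3000 bases it was 8.96% and 3.77%. In both sets the share that reached the end was lower where the last exon was longer. Within wide bins of last-exon length the sets differed in both directions, and last-exon length was not held equal inside a bin. With a last exon under 1000 bases, models reached the end in 98.7% of cases for long transcripts and 79.3% for shorter ones. At 1000 to 3000 bases the shares were 47.4% for long and 59.3% for shorter transcripts, and at 3000 to 6000 bases 5.82% and 20.5%. For long transcripts with a last exon of 6000 bases or more it was 0.573%. By library, 27.0% of models reached the end in replicate 1 and 22.1% in replicate 2. These shares were not tested, since models of 1 gene share their reads' source.

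**Figure D5:**
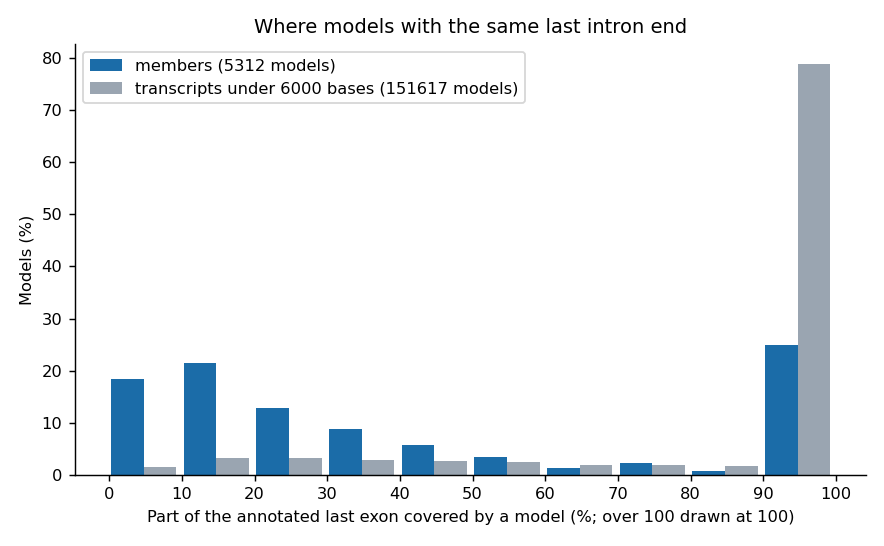
Percent of unannotated models by the part of the annotated last exon that they cover, for models that share the last intron of a long transcript (5312 models) or of a transcript under 6000 bases (151617 models). For long transcripts 18.4% of models cover under 10% of the last exon and 21.6% cover 10 to 20%, while for shorter ones 78.8% fall in the bin above 90%.

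Among the 360 long transcripts with at least 5 such reads, the most-read end lay 500 or more bases early in 279 (77.5%) and 2000 or more in 241 (66.9%). The length from the annotated start to that end had a median of 4086.5 bases (interquartile range 2842.5 to 6035.5), against an annotated median of 6918.5, and it was 6000 or more in 93. Reads of a model need not all end where the model does, which limits this count. For Ppp2ca-201, 24 models covered a median of 727 bases of the 5877-base last exon, and 0 reached its end. For G3bp1-201, 38 models covered a median of 867 of 5380 bases, again with 0 reaching the end. All 59 models of Mprip-204, which encodes a partner of myosin phosphatase, ended at 1 place, 708 bases into a last exon of 5339. Soat1-207, whose enzyme esterifies cholesterol for storage in steroid-producing cells, had 29 models with a median of 1323 of 6591 bases. In contrast, 102 of 120 models of the type IV collagen transcript Col4a1-201 and 85 of 85 of Col4a2-201 reached the annotated end, as did 35 of 35 of 2610507B11Rik-201. Of the 279 early ends, 151 (54.1%) were at the annotated end of another transcript of the same gene.

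The hexamers printed above were searched for in the 40 bases before each end. AATAAA or ATTAAA stood there in 151 of the 279 most-read early ends (54.1%), and in 221 of the 279 annotated ends of the same transcripts (79.2%). The share was 83.7% for the annotated ends of all 639 long transcripts and 71.0% for those of shorter transcripts. Over all 40-base windows of the same last exons it was 4.78%. Read on the opposite strand, the motifs stood in 15.8% of early ends, 10.4% of annotated ends and 5.98% of all windows. Of the 128 early ends with no annotated end at that place, 61 (47.7%) held a hexamer. A window with both motifs counts once, and a match describes these letters, not a site in use.

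A long and a short form with identical introns would not be told apart by the chain. Another annotated transcript with the same introns existed for 11 of the long transcripts, in 5 cases with a length under 6000 bases, and that other transcript had 0 reads in every case. Kpna4-201, an importin alpha of 8819 bases, had 22 reads in replicate 1 and 34 in replicate 2, while its twin Kpna4-203 of 3726 bases had 0 and 0. How reads were divided between such pairs is not given in the sources used here.

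Long transcripts took 53.7% of all reads of their 620 genes, with a median of 40.7% per gene (upper quartile 64.8%). In the 250 genes with 50 or more reads the median was 51.0%. A gene enters only with 3 or more reads on a long transcript, which are Known reads. The rule therefore bounds these shares, and those of Known models in these genes below, from below, and they are descriptions. Genes with 50 or more reads reached 96.9% in Mrpl17, a mitochondrial ribosomal protein, and 94.8% in Rab18, a GTPase of lipid droplets. They went down to 1.73% in Pafah1b1, a dynein regulator, and 3.07% in Tln1. The share in Pafah1b1 came from 3 reads, the least that the rule allows. Where the most-read long transcript had a span under 1000 bases, Known models took 82.2% of the gene reads in replicate 1 and 77.1% in replicate 2. Incomplete matches that lack the 5′ junctions took 2.81% and 2.68%. Where the span was 3000 or more, Known models took 36.0% and 24.3%, and such 5′-incomplete matches 38.7% and 35.1%. Matches that lack the 3′ junctions took 3.42% and 11.8% there, and models of the class Genomic 5.93% and 11.05%. In genes whose most-read annotated multi-exon transcript is under 6000 bases, Known models took 80.8% and 74.6%. The 5′-incomplete matches took 6.20% and 8.32% in those genes, and the 3′-incomplete ones 0.547% and 1.13%. The share of gene reads on Known models was tested in the 247 of these genes that had at least 20 reads per library. It was higher in replicate 1 in 42 of them and lower in 0, by Fisher's exact test with Benjamini-Hochberg adjustment over 6342 genes, of which 19.7% were higher and 0.568% lower. Without models of the class Genomic 21 were higher and 2 lower, and with at least 50 reads per library 25 were higher. The shares over all genes at these 2 settings are not given here. At an unadjusted p under 0.05 by Fisher's exact test, 73 of the 247 differed in either direction, beside 1876 of all 6342 genes.

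The genes that held 2 long transcripts numbered 17, and Nfib held 3; some such pairs differ in coding sequence that the reads crossed. That of 2 pairs is printed because it is what the intron chain separates. In Wdr26, a subunit of the CTLH ubiquitin ligase, exon 3 of Wdr26-207 carries 48 bases, in capitals, that Wdr26-208 lacks. In Mprip, exon 23 of Mprip-204 brings 30 coding bases and an earlier stop codon, in capitals, that Mprip-202 skips.
Wdr26-207, chr1:181209003-181209107, minus strand: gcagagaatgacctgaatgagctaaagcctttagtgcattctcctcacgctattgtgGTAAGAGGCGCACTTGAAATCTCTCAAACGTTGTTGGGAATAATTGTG
Mprip-204, chr11:59772152-59772184, plus strand: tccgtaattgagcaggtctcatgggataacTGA

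Wdr26-207 had 5 reads in replicate 1 and 23 in replicate 2, and Wdr26-208 had 8 and 42, so both forms were lower in replicate 1 (log2 -1.60 and -1.83; adjusted p = 0.0322 and 0.000741 by Fisher's exact test). The call on Wdr26-207 was lost when transcripts of fewer reads were also tested (adjusted p = 0.074 by Fisher's exact test). Mprip-204 had 176 and 120 reads and Mprip-202 had 109 and 53, both higher in replicate 1. The 2 forms of Qk, the RNA-binding protein quaking, ran opposite ways in count: Qk-204 had 60 and 18 reads (log2 2.20), while Qk-201 had 4 and 15 (log2 -1.29, adjusted p = 0.189 by Fisher's exact test). A difference between 2 forms of a gene was not tested.

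Among lists of genes with long mRNAs, 13 of the 44 cytoskeleton and motor genes held 14 long transcripts, and 8 of the 27 RNA processing and translation genes held 10. Counts of calls below stand against the 26.9% of all transcripts called higher in replicate 1 and 11.9% called lower, and with so few transcripts tested none is set apart from that background. Of 7 cytoskeleton and motor transcripts tested, 3 were higher in replicate 1 (Cltc-202 and, from 1 gene, Mprip-204 and Mprip-202) and 0 lower, with a median log2 ratio of 1.04 against 0.41 for all transcripts. The fast myosin Myh1-203 had 10 reads in replicate 1 and 24 in replicate 2 (log2 -0.73, not past the test), beside the muscle markers given above, whose part was not tested. The non-muscle myosin Myh9-201 had 8 and 4. Extracellular matrix genes held 9, and 2 of 6 tested were higher in replicate 1. Col4a1-201, with 52 exons and a span of 4844 bases, had 164 and 156 reads (log2 0.56, adjusted p = 0.00227 by Fisher's exact test), a call lost with TMM factors (log2 0.16). Its partner chain Col4a2-201 had 50 and 68 reads (log2 0.05), and the laminin chain Lamc1-201 had 19 and 3 (log2 2.97). Lipid genes held 5, of which Soat1-207 alone was tested, with 184 and 82 reads (log2 1.65, adjusted p = 3.73e-18 by Fisher's exact test). Of the RNA processing and translation transcripts, 2 of 4 tested were higher in replicate 1 (Eif4g2-213, log2 1.42, and Qk-204). Of 48 chromatin and transcription regulators only 4 held a long transcript. The nuclear receptor coactivator Ncoa1-201 had 16 and 2 reads (log2 3.21), and the glucocorticoid receptor Nr3c1-203 had 3 and 3.

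Few members of the remaining lists were read. Lipoprotein and endocytic receptor genes held 5, with 0 of 2 tested past the threshold in either direction, and Vldlr-207 had 8 and 11 reads. Ubiquitin ligase and protease genes held 3, with 43 and 41 reads on Cand1-201 and 0 of 1 tested past the threshold. The list of growth and stress kinases held 4, none with the 10 reads needed. Ion channel and transport genes held 3, with 15 and 12 reads on Slc12a2-201 and 0 of 1 past the threshold. Rab3gap2-201 was the 1 long transcript of the vesicle list (18 and 13 reads), and Ube3a-203 that of the imprinted list (6 and 13 reads), and neither passed the test.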

How the data were processed

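Per the labels, 2 long-read RNA-seq libraries of adrenal gland were made with spike-ins and mapped to mm10; the aligner is not given in the sources used here. The authors deposited, per the file headers, a table of raw read counts per transcript model with TALON classes, model lengths in bases, and the models' exons, for each replicate. Spike-in rows were left out. Exons were compared with GENCODE M21, which also gave UTRs and transcript sequences. Counts were scaled to reads on annotated genes (927914 in replicate 1, 1303420 in replicate 2). With 1 library a side, edgeR's quasi-likelihood test could not be used. Fisher's exact test (two-sided, scipy 1.17.1) with Benjamini-Hochberg adjustment was run on the whole table for transcripts with 10 or more reads, and log2 ratios carry 0.5 added reads. It was tested on simulated data. TMM factors (edgeR 4.0.16) and DESeq2 1.42.0 size factors served as alternatives. The long transcripts, the 11 gene lists and the markers were chosen with earlier results of these data known. Transcripts named are the 15 most read, the 10 longest, the 8 largest ratios each way with 20 or more reads, up to 4 per list, genes with several long transcripts, and those with the extreme shares or nearest the limits; others are examples of structure chosen after their values were seen. Some of these are not reported here.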

Additional observations from a re-analysis of the deposited data

How the results depend on the processing

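No paired analysis was possible because there is 1 group, with 2 libraries and no contrast between conditions. Most transcripts with a span of 6000 bases or more had under 10 reads and were not tested. Left out 1 at a time, the libraries gave 425 to 482 transcripts by the rule, and 1.43% to 1.91% of Known reads. A limit of 5000 bases gave 1275 transcripts and one of 8000 gave 189; a minimum of 1 read gave 1012 and of 10 reads 326. Out of all reads on annotated genes, the share was 1.29%. Calls higher in replicate 1 numbered 57 with TMM factors, 55 with DESeq2 factors and 47 when scaled to the reads on long transcripts, against 92; calls lower numbered 29, 29 and 37, against 19. The added constants were -0.41, -0.42 and -0.54 on the log2 scale. The shares of all transcripts called under these scalings are not given here, so the counts cannot be set against a background. Matrix transcripts higher in replicate 1 numbered 1 with TMM factors and 1 with the long-transcript scaling, and RNA processing transcripts lower numbered 2 with the latter scaling. Of the share of gene reads on Known models, 21 genes were higher and 2 lower without Genomic models, and 25 were higher with 50 reads a library. The share of models reaching the annotated end was 24.55% within 100 bases as within 200, 26.2% within 500, and 22.1% to 27.0% with either library left out, alternatives added after the data were seen.

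Among the named transcripts with a tested ratio, log2 ratios that changed sign, with TMM, DESeq2 and long-transcript scaling in that order, were those of Cdc37-201 (-0.09, -0.10, -0.22), D10Wsu102e-201 (-0.03, -0.04, -0.16), Ppm1a-201 (-0.20, -0.22, -0.34), Col4a2-201 (-0.36, -0.37, -0.49), Tmem33-201 (-0.15, -0.16, -0.28), Sort1-201 (-0.16, -0.17, -0.29), Vldlr-207 (-0.35, -0.37, -0.49), Rab18-205 (-0.10, -0.11, -0.23) and Glo1-206 (-0.16, -0.17, -0.29). With the long-transcript scaling alone they were Serbp1-201 (-0.02), Rab11b-201 (-0.01), Syncrip-201 (-0.05), Rab22a-203 (-0.05) and Hnrnpr-207 (-0.05). Each scaling adds 1 constant to every log2 ratio, which by construction is what moves them.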

Other observations

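Unannotated spliced models have lengths of their own and give another view of long molecules, although their ends can equal annotated ends. Those of 6000 bases or more numbered 783 with 1055 reads in replicate 1 and 222 with 297 reads in replicate 2, which was 0.690% and 0.143% of the reads on such models. The longest had 11571 bases in replicate 1 and 9614 in replicate 2. They lay in 597 genes. Opa1, the mitochondrial fusion GTPase, had 40 reads on such models in replicate 1 and 0 in replicate 2. Col4a1 had 12 and 12. Evi5, a regulator of Rab GTPases, had 18 and 2, and Cpsf6, a cleavage and polyadenylation factor, had 0 and 16. The fast muscle myosin Myh4 had 3 and 10. No test was made of these counts.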
